A study of Mus musculus with 22 samples.

Results

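Hr, Trp53inp2, Desi1, Acot11, Angptl2, Dmtn, Spsb1, Lynx1 and Parp6 are 9 mouse genes examined here as candidate targets of thyroid hormone (TH) that lay higher after the hormone in both white adipose tissue (WAT) and striatum. Each of the 9 genes is 1 row of the striatum table, which has 55341 rows, and 1 row of the WAT table, which has 47643 rows. The genes were chosen by measured values, because the study discusses them or because they were higher after TH than without it in both tissues. Their changes against the control group are therefore given as a description. Tests are kept for other comparisons, and those made on the 9 genes share libraries with the choice and are not free of it.

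The animals were wild-type C57BL/6J mice labelled as male and 8 weeks old. Control animals of both tissues had been made hypothyroid with propylthiouracil (PTU), a drug that blocks TH synthesis, for 2 weeks, and this group is called PTU (n = 2 libraries in striatum, n = 4 in WAT). The other animals received TH, and tissue was taken 12 or 24 h later from striatum and 6 or 24 h later from WAT (n = 4 libraries each, 22 libraries in all). The hormone was a single intraperitoneal injection of T3 and T4 according to the study, whose overview lists PTU for WAT and none for striatum, while the labels of the TH libraries name only TH and the time. The labels do not say that libraries came from separate animals, so p-values measure the spread between these libraries, which may be partly technical.

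TH acts through nuclear receptors that sit on DNA as heterodimers with the retinoid X receptor, usually at pairs of the hexamer AGGTCA. Without hormone the receptors hold corepressors, and with hormone they exchange them for coactivators, so that direct targets gain transcripts within hours. In adipose tissue TH is known for raising thermogenesis and lipid turnover, and in striatum for its part in neuronal maturation and signalling. The 9 genes have unlike functions. Hr encodes HAIRLESS, a corepressor that binds TH receptors and other nuclear receptors, and Trp53inp2 encodes a protein that serves both as a coactivator of TH receptors and in autophagosome formation. Desi1 encodes a protease that removes SUMO from proteins, Spsb1 the substrate adaptor of a ubiquitin ligase, and Parp6 a mono-ADP-ribosyltransferase. Acot11 encodes a thioesterase that hydrolyses fatty acyl-CoA, and Angptl2 a secreted angiopoietin-like protein. Dmtn encodes dematin, which bundles actin in the membrane skeleton, and Lynx1 a membrane-anchored protein that modulates nicotinic acetylcholine receptors.

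The genes lie on 5 chromosomes in the mouse genome (GRCm38 coordinates, GENCODE M21 annotation). Hr (chr14:70552212-70573548, plus strand) and Dmtn (chr14:70601263-70636048, minus strand) are 27.7 kb apart. The other pairs that share a chromosome are far from each other, with 7.24 Mb between Lynx1 (chr15:74747852-74753046, minus strand) and Desi1 (chr15:81992523-82033862, minus strand), 43.1 Mb between Acot11 (chr4:106744555-106804998, minus strand) and Spsb1 (chr4:149896283-149955043, minus strand), and 122 Mb between Angptl2 (chr2:33216069-33247717, plus strand) and Trp53inp2 (chr2:155381059-155389850, plus strand). Parp6 (chr9:59617284-59650285, plus strand) is alone on its chromosome. Desi1 shares 344 exonic bases with Xrcc6 on the opposite strand, and the strand setting of the counting is not given in the sources used here, so reads there cannot be assigned to either gene with certainty. Acot11 shares 1263 exonic bases with Fam151a, which had at most 3.88 normalised counts in any library, and Spsb1 shares 103 with the antisense gene Gm13070, which had at most 1.2.

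Promoter windows of 300 bases (250 before to 50 after the annotated start, RefSeq, GRCm38.p6) were at hand for 6 of the 9 genes, Trp53inp2, Desi1, Acot11, Angptl2, Spsb1 and Parp6, with 7 windows in all because Acot11 has 2 annotated starts. The 7 windows were alike in base composition, with a GC content of 64.7% to 67.7% and a median of 66.3%, where the median of all 32851 windows was 52.7%. The hexamer AGGTCA, read on both strands, occurred in 1 of the 7 windows, that of Spsb1, and in 16.3% of all windows. The repeat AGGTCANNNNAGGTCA, in which 4 bases of any kind separate the hexamers, occurred in none of the 7 and in 0.0152% of all windows. A repeat this rare is not expected in 7 windows, so its absence tells nothing. The study counted receptor binding sites at much greater distances and found a large share of them in introns. These windows therefore do not show whether the genes have receptor elements. The windows of Spsb1 (chr4:149954957-149955256, minus strand), Acot11 (chr4:106804958-106805257, minus strand) and Angptl2 (chr2:33215711-33216010, plus strand) are shown because the first holds the hexamer and the other two belong to the genes whose counts in WAT moved in opposite directions between 6 and 24 h. Each reads 5′ to 3′ on the strand of its gene. Capitals mark the hexamer in its reverse complement, which begins 160 bases before the start of Spsb1.
Spsb1: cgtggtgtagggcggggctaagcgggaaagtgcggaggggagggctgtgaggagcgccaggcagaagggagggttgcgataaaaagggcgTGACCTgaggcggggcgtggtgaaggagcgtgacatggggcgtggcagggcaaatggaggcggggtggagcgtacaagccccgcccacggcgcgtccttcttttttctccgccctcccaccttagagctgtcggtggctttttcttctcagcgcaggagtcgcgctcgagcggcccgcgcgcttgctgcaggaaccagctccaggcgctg
Acot11: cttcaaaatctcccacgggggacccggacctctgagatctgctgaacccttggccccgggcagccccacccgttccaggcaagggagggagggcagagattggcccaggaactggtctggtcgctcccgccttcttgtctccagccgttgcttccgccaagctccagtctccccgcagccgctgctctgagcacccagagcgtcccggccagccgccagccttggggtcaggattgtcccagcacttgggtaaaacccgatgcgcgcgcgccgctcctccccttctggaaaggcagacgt
Angptl2: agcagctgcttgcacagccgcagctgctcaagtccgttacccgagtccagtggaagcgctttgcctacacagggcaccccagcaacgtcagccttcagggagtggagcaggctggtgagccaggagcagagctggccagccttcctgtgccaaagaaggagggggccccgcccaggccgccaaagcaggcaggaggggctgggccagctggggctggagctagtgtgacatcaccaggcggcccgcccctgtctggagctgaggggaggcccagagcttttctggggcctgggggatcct

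The libraries held 8056443 to 10163849 counts in striatum and 17298747 to 26963433 in WAT, and all 9 genes passed the filter of a mean above 10 normalised counts (counts scaled to equal library size) in both tissues. The 7 adipocyte markers were present in WAT, with sums of 19300 to 24300 CPM (counts scaled to the same library total) in PTU, 16400 to 19600 at 6 h and 12100 to 17000 at 24 h, and 4 of the 7 were called lower than PTU at 24 h. Summed skeletal muscle markers were uneven in PTU WAT, at 8330, 84.9, 151 and 20500 CPM in replicates 1 to 4. Of the PTU WAT libraries replicate 4 was lowest for 6 of the 9 genes. Replicate 1 was lowest for 2 and highest for 3. The part of muscle in the changes against PTU was not tested. Summed markers of striatal projection neurons stood at 2310 to 6130 CPM in 9 striatum libraries but at 304 CPM in the library labelled striatum 24 h replicate 2, which also had the highest sum of cortical excitatory neuron markers, 2560 CPM. In striatum the sex label was not borne out by every library: PTU replicate 6, 12 h replicate 1 and all 4 libraries at 24 h had at most 0.727 CPM of Y-linked genes and 2350 to 3580 CPM of Xist, the transcript of the inactive X chromosome, while PTU replicate 3 and 12 h replicates 2 to 4 had 91.0 to 112 CPM of Y-linked genes. Striatal values of Hr, Desi1 and Lynx1 are therefore also given within the libraries with and without Y-linked counts. All 12 WAT libraries had Y-linked counts, at 132 to 180 CPM, and at most 0.406 CPM of Xist. In bulk tissue, fewer cells of a type and less RNA per cell cannot be told apart.

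Without TH the 9 genes differed widely in level, compared here as CPM per kilobase of exonic length. In PTU striatum Trp53inp2 was the most abundant at 53.5 ± 3.36 CPM per kb (SD, n = 2), followed by Desi1 (28.3 ± 1.34), Dmtn (15 ± 0.433), Lynx1 (13.7 ± 2.03), Parp6 (8.87 ± 0.246), Spsb1 (2.08 ± 0.00321), Acot11 (1.03 ± 0.0292), Hr (0.738 ± 0.202) and Angptl2 (0.258 ± 0.0101). Only Dmtn and Lynx1 overlapped among neighbours in that order. In PTU WAT Trp53inp2 was again the most abundant at 26 ± 4.84 CPM per kb (SD, n = 4), and Angptl2 came next at 9.5 ± 2.69. Desi1 (4.55 ± 0.508) stood above Parp6 (3.05 ± 0.272), Spsb1 (2.95 ± 0.27), Dmtn (2.72 ± 0.532) and Lynx1 (2.26 ± 0.541), and these last 4 overlapped. Hr (0.884 ± 0.226) and Acot11 (0.378 ± 0.114) were lowest and did not overlap each other. Angptl2 was thus the least abundant of the 9 in striatum and the second most abundant in WAT. The 2 tables were counted separately, so levels were not tested between tissues.

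In the comparisons with PTU, 7 of the 9 genes were called higher in striatum at 12 h (adjusted p under 0.05, all but Desi1 and Lynx1), 8 at 24 h (all but Desi1), 7 in WAT at 6 h (all but Lynx1 and Parp6) and 9 at 24 h. Among all genes tested 0.733%, 0.316%, 4.18% and 7.45% were called higher in these 4 comparisons. The median log2 change of the 9 genes was 0.86, 0.84, 0.95 and 0.91 in that order, and that of all genes tested was 0.01, 0.02, -0.03 and -0.00. The comparisons within a tissue share the PTU libraries, and these are the values that chose the genes, so nothing is read from the counts. The striatal counts depended on single libraries. They fell to 0 at both times without PTU replicate 3 and to 1 at both times without PTU replicate 6, which leave 1 PTU library, assumed to vary like the TH groups. At 12 h the count was 2, 1 and 4 without 12 h replicates 2, 3 and 4, and at 24 h it was 5, 2 and 2 without 12 h replicates 1, 2 and 3 and 4, 4 and 1 without 24 h replicates 1, 3 and 4. Without 24 h replicate 2, the library with few projection neuron markers, the counts were 9 at 12 h and 8 at 24 h.

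**Figure D1:**
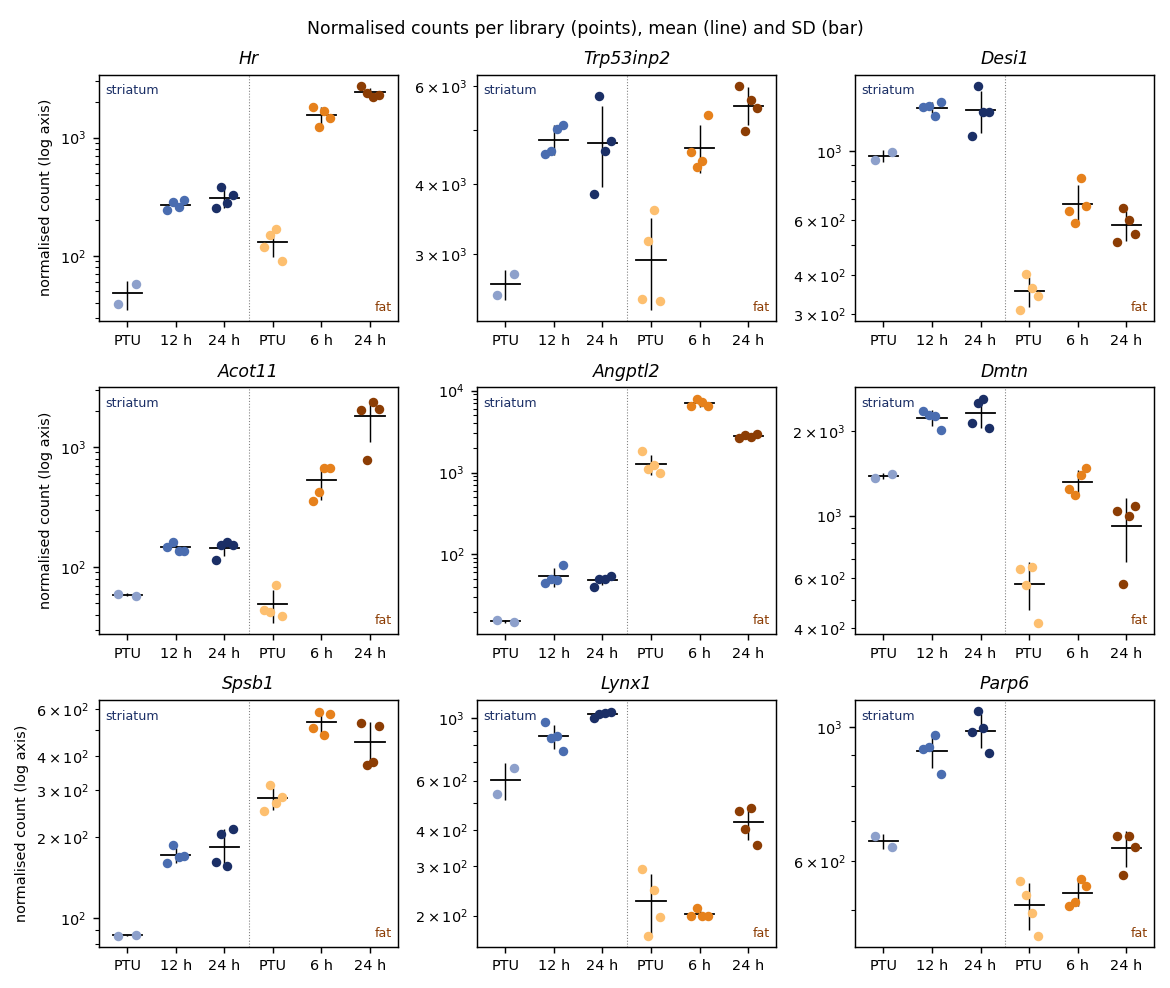
Normalised counts of the 9 genes in every library (points; log axis), with the group mean (horizontal line) and SD (vertical bar). In striatum the 8 TH libraries lie above both PTU libraries for each of the 9 genes, while in WAT Lynx1 and Parp6 at 6 h and Dmtn at 24 h overlap the PTU group.

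Hr, the corepressor gene, had 38.8 and 57.4 normalised counts in the 2 PTU libraries of striatum. It had 245, 284, 258 and 295 at 12 h and 255, 381, 279 and 327 at 24 h. Every TH library of striatum lay far above both PTU libraries, and the 2 times overlapped. In WAT Hr had 118, 150, 167 and 91.0 normalised counts in PTU, 1820, 1230, 1690 and 1470 at 6 h, and 2740, 2370, 2210 and 2310 at 24 h. The 3 WAT groups did not overlap, and the 24 h group was highest. On the log2 scale Hr lay 2.49 ± 0.21 and 2.68 ± 0.21 (SE) above PTU in striatum at 12 and 24 h, and 3.56 ± 0.19 and 4.19 ± 0.19 above it in WAT at 6 and 24 h.

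Trp53inp2, the receptor coactivator and autophagy gene, started from a much higher level and moved less. In striatum it had 2530 and 2760 normalised counts in PTU, 4520, 4580, 5020 and 5110 at 12 h, and 3840, 5760, 4580 and 4770 at 24 h. In WAT it had 2490, 3170, 3590 and 2470 in PTU, 4570, 4290, 4400 and 5320 at 6 h, and 6000, 4970, 5660 and 5480 at 24 h. TH libraries lay above PTU libraries without overlap in both tissues. The log2 changes were close to each other in all 4 comparisons, 0.86 ± 0.15 and 0.84 ± 0.15 (SE) in striatum and 0.66 ± 0.13 and 0.92 ± 0.13 in WAT.

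Acot11, the acyl-CoA thioesterase gene, had 59.7 and 57.4 normalised counts in PTU striatum, 148, 163, 135 and 136 at 12 h, and 114, 151, 161 and 153 at 24 h. In WAT it had 44.2, 41.9, 71.3 and 39.4 in PTU, 353, 424, 663 and 662 at 6 h, and 2030, 777, 2390 and 2070 at 24 h. The TH libraries lay above PTU in both tissues, and in WAT the 3 groups did not overlap, with 24 h replicate 2 the lowest of its group and still above every 6 h library. Per length it went from the lowest of the 9 genes in PTU WAT to 13.9 ± 5.45 CPM per kb at 24 h (SD, n = 4), near Hr at 16.1 ± 1.53. Its log2 changes were 1.31 ± 0.17 and 1.30 ± 0.17 (SE) in striatum and 3.40 ± 0.37 and 5.19 ± 0.39 in WAT. Summed brown adipocyte markers (6 genes, none at 0 across WAT libraries) moved with it, from 355 to 398 CPM in PTU WAT to 388 to 648 at 6 h and 518 to 1090 at 24 h, and their part in the Acot11 values was not tested. Of these 6 genes 2 were called higher at 6 h, and 3 were called higher and 1 lower at 24 h. The library with the lowest Acot11 level at 24 h, replicate 2, had a brown adipocyte sum of 940 CPM, the second highest of its group. It also had the highest skeletal muscle sum of that group, 11300 CPM, and the lowest level of 5 of the 9 genes. Nothing is read from this 1 library.

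Angptl2, which encodes a secreted protein made in large amounts by adipose tissue, had 15.7 and 14.8 normalised counts in PTU striatum, 44.4, 49.9, 48.0 and 74.6 at 12 h, and 40.1, 50.4, 50.0 and 54.2 at 24 h. In WAT it had 1810, 1100, 1230 and 1000 in PTU, 6480, 8000, 7200 and 6430 at 6 h, and 2640, 2860, 2720 and 2940 at 24 h. The 3 WAT groups did not overlap, and the 6 h group was highest. The log2 changes against PTU were 1.82 ± 0.28 and 1.66 ± 0.28 (SE) in striatum, 2.45 ± 0.17 in WAT at 6 h and 1.12 ± 0.16 at 24 h.

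Dmtn, the dematin gene, had 1360 and 1410 normalised counts in PTU striatum, 2350, 2280, 2250 and 2020 at 12 h, and 2130, 2500, 2600 and 2050 at 24 h. In WAT it had 649, 566, 659 and 417 in PTU, 1240, 1180, 1390 and 1470 at 6 h, and 1040, 574, 993 and 1080 at 24 h. In WAT the 24 h libraries lay between the other groups apart from replicate 2, which fell within the PTU range. The log2 changes were 0.69 ± 0.12 and 0.75 ± 0.12 (SE) in striatum, 1.20 ± 0.19 in WAT at 6 h and 0.68 ± 0.19 at 24 h, the last being 0.86 without 24 h replicate 2. That call at 24 h held in 7 of 12 fits without 1 WAT library (adjusted p up to 0.0760), as did that of Parp6 (up to 0.0796). Dematin is abundant in erythrocytes, whose summed markers were 960 to 2300 CPM in PTU WAT, 780 to 1350 at 6 h and 617 to 1680 at 24 h, with 0 of the 5 tested genes called at either time. These sums are mostly haemoglobin, and the membrane marker Slc4a1 reached at most 0.582 CPM in any WAT library.

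Lynx1, the modulator of nicotinic receptors, had 538 and 664 normalised counts in PTU striatum, 969, 848, 863 and 761 at 12 h, and 996, 1030, 1040 and 1050 at 24 h. In WAT it had 291, 170, 246 and 197 in PTU, 200, 213, 199 and 200 at 6 h, and 467, 404, 480 and 355 at 24 h. In striatum all TH libraries lay above PTU, whereas in WAT the 6 h libraries lay inside the PTU range and only the 24 h libraries lay above it. The log2 changes were 0.52 ± 0.12 and 0.77 ± 0.12 (SE) in striatum, -0.16 ± 0.16 in WAT at 6 h and 0.91 ± 0.16 at 24 h. Summed peripheral nerve markers (7 genes) overlapped across the WAT groups, at 68.1 to 133 CPM in PTU, 64.3 to 119 at 6 h and 91.3 to 148 at 24 h. Among these Th and Dbh, which mark sympathetic fibres, reached at most 0.172 and 0.0573 CPM.

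The 3 genes of protein modification are given by their ranges. Desi1, the SUMO protease gene, had 933 to 994 normalised counts in PTU striatum, 1300 to 1440 at 12 h and 1120 to 1620 at 24 h, and in WAT 309 to 403 in PTU, 589 to 816 at 6 h and 511 to 658 at 24 h. Spsb1, the ubiquitin ligase adaptor gene, had 85.9 to 86.1 in PTU striatum, 160 to 187 at 12 h and 156 to 214 at 24 h, and in WAT 251 to 312, 479 to 585 and 370 to 534. Both genes separated from PTU in both tissues at both times. Parp6 had 635 to 660 normalised counts in PTU striatum, 835 to 971 at 12 h and 906 to 1060 at 24 h, and in WAT 453 to 558 in PTU, 507 to 562 at 6 h and 569 to 660 at 24 h. It therefore overlapped PTU in WAT at 6 h. The log2 changes in striatum at 12 h and 24 h and in WAT at 6 h and 24 h were 0.52, 0.49, 0.93 and 0.70 for Desi1, 0.99, 1.10, 0.95 and 0.70 for Spsb1, and 0.50, 0.61, 0.07 and 0.31 for Parp6, with standard errors of 0.09 to 0.16.

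**Figure D2:**
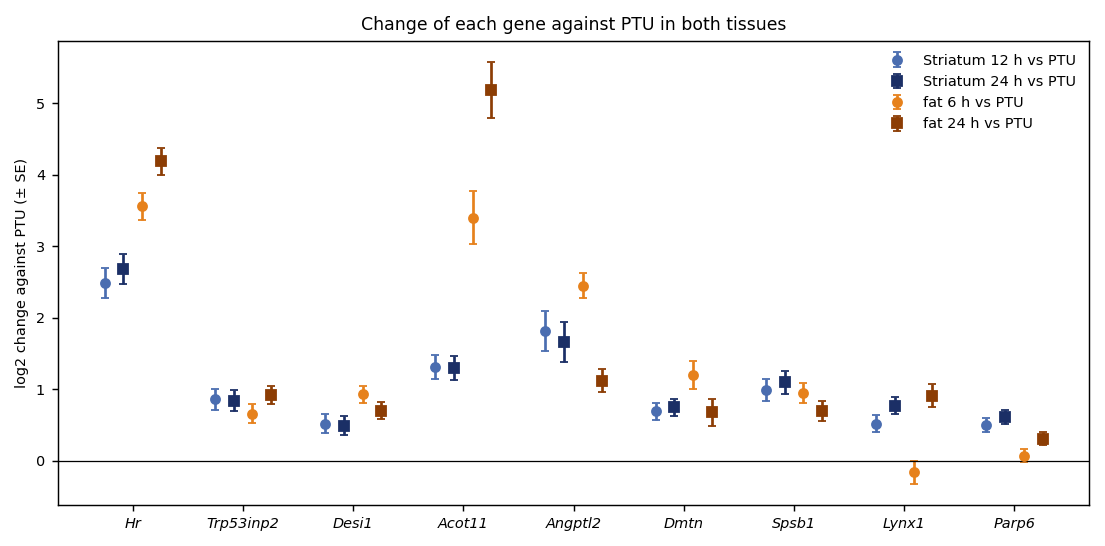
Log2 change against PTU (vertical axis, ± SE) of the 9 genes in striatum at 12 and 24 h and in WAT (fat) at 6 and 24 h. Acot11 and Hr stand at 5.19 and 4.19 in WAT at 24 h, and Lynx1 and Parp6 stand near 0 in WAT at 6 h only.

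The striatal values were also read within the library types. Among libraries without Y-linked counts, Hr had 57.4 normalised counts in PTU (n = 1), 245 at 12 h (n = 1) and 255 to 381 at 24 h (n = 4), and among those with Y-linked counts it had 38.8 in PTU (n = 1) and 258 to 295 at 12 h (n = 3). In the same order Desi1 had 994, 1380 and 1120 to 1620 without Y-linked counts, and 933 and 1300 to 1440 with them. Lynx1 had 664, 969 and 996 to 1050 without them, and 538 and 761 to 863 with them. With 1 PTU library in each type these values have no replicate check. The sum of cortical excitatory neuron markers (7 genes, none at 0) moved with the groups, from 435 and 796 CPM in PTU to 1030 to 1620 at 12 h and 608 to 2560 at 24 h. The sum of projection neuron markers (9 genes, none at 0) was 4030 and 5850 CPM in PTU and 2310 to 3750 at 12 h. None of the 7 cortical and 9 projection neuron markers was called at either time, with median log2 changes of 1.24 and -0.90 at 12 h and 1.18 and -0.37 at 24 h. The libraries at 24 h labelled replicates 1 and 3 had cortical sums of 792 and 608 CPM, inside the PTU range, and projection neuron sums of 5640 and 6130 CPM, of which the second lies above the PTU range. In these 2 libraries Hr had 255 and 279 normalised counts, Trp53inp2 3840 and 4580, and Lynx1 996 and 1040. Within the 24 h group replicate 1 was lowest for 6 of the 9 genes and highest for 0, and replicate 3 was lowest for 1 and highest for 2. Replicate 2, with the highest cortical sum, was highest for 4 and lowest for 0, and replicate 4 was highest for 3 and lowest for 2. At 12 h no TH library had a cortical sum inside the PTU range. The part of these markers in the values of the 9 genes was not tested at either time.

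**Figure D3:**
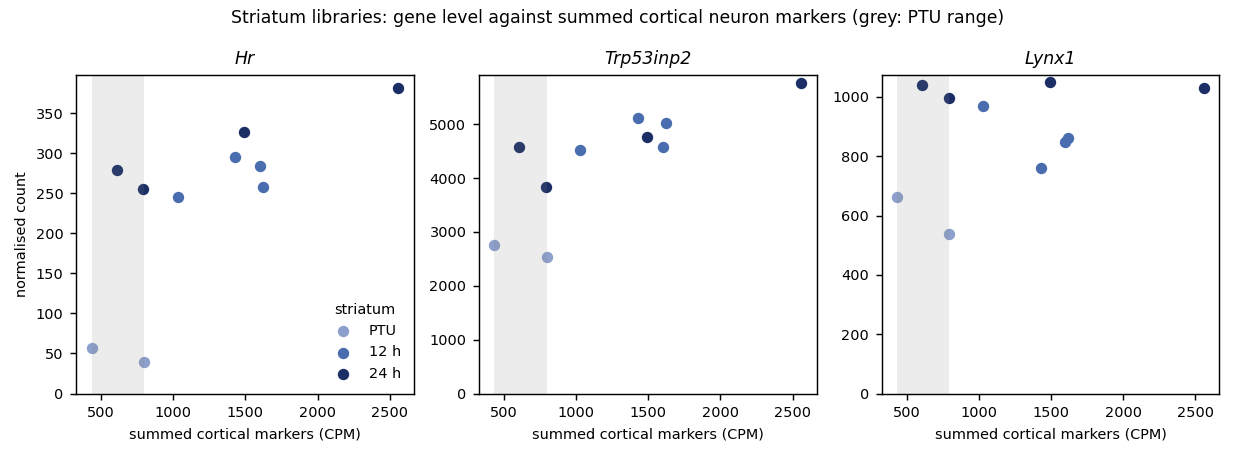
Normalised counts of Hr, Trp53inp2 and Lynx1 (vertical axes) against the summed cortical excitatory neuron markers in CPM (horizontal axes) in the 10 striatum libraries, with the PTU range of that sum shaded. The sum runs from 435 to 796 CPM in PTU, from 1030 to 1620 at 12 h and from 608 to 2560 at 24 h.

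The next question was when the counts changed between the hormone times. This contrast was not itself used to choose the genes, but it uses TH libraries that were. In striatum 0 of the 9 genes were called between 12 and 24 h by edgeR's quasi-likelihood test, where 0% of all genes tested were called. At an unadjusted p under 0.05 there was 1, Lynx1 (log2 change 0.26 ± 0.09, SE), and DESeq2 called 0 of the 9. The log2 changes of the 9 genes ran from -0.16 to 0.26. In WAT 4 of the 9 genes were called between 6 and 24 h, against 7.41% of all genes tested, 3 higher and 1 lower at 24 h. Lynx1 and Parp6 lay above PTU in WAT at 24 h only, so their choice favours a rise between these times. The count of 4 and the p-value of Lynx1 are thus not free of the choice.

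Acot11 rose 3.45-fold between the WAT times, by 1.79 ± 0.32 in log2 units (SE; adjusted p 0.00727, all 4 libraries at 24 h above all 4 at 6 h). Lynx1 rose by 1.07 ± 0.16 (adjusted p 0.00243), again with all 24 h libraries above all 6 h libraries. Hr rose by 0.63 ± 0.16 (adjusted p 0.0373). Angptl2 fell by 1.33 ± 0.16 (adjusted p 0.000633), with all 24 h libraries below all 6 h libraries. Leaving out any 1 WAT library kept the calls of Acot11, Lynx1 and Angptl2 in all 12 fits. That of Hr held in 5 of 12 and was lost without 6 h replicates 2, 3 or 4 or any 1 of the 4 libraries at 24 h (adjusted p 0.0559 to 0.0966). Dmtn changed by -0.52 ± 0.19 (adjusted p 0.118) and Parp6 by 0.25 ± 0.09 (adjusted p 0.109) without passing the test, although their 2 times did not overlap. Trp53inp2 (0.25 ± 0.13), Desi1 (-0.23 ± 0.12) and Spsb1 (-0.25 ± 0.13) overlapped between the times. The WAT genes therefore followed different courses, with Angptl2 highest at 6 h, Acot11, Hr and Lynx1 highest at 24 h, and Lynx1 within the PTU range at 6 h. Cell type markers also moved between these times. Of the 7 adipocyte markers 3 were called lower at 24 h than at 6 h (Adipoq, Plin1 and Cidec), and the median log2 change of the 7 was -0.58. Summed stratified epithelium markers were 11.1 to 149 CPM at 6 h and 8.91 to 10.9 at 24 h (3 of 6 tested called lower), and skeletal muscle markers were 38.3 to 3880 and 1540 to 11300 (0 of 7 called). Their part in the courses of the 9 genes was not tested.

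**Figure D4:**
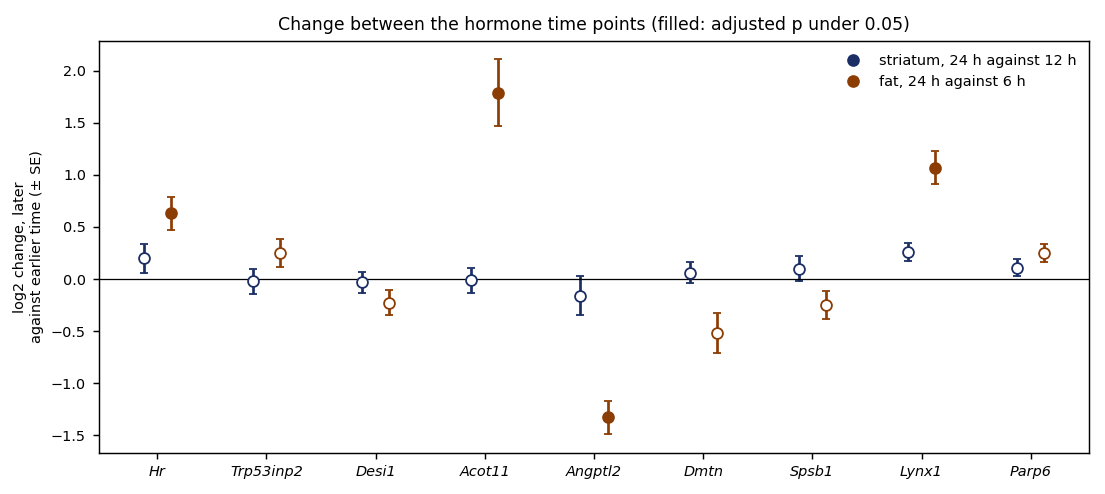
Log2 change of the 9 genes (vertical axis, ± SE) from 12 to 24 h in striatum and from 6 to 24 h in WAT (fat). Filled points passed an adjusted p of 0.05, which in WAT were Hr, Acot11 and Lynx1 above 0 and Angptl2 below it, and in striatum none.

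Whether the size of the response differed between the tissues at 24 h, the time they share, was tested as the difference of the log2 changes (WAT minus striatum). The difference was not itself used to choose the genes, but it is built from changes that were. Its p-values and the count of calls are therefore not free of that choice. Of the 9 genes 2 were called, against 5.14% of the 12766 genes tested. Acot11 responded more in WAT by 3.88 ± 0.48 in log2 units (SE; adjusted p 9.43e-05), and Hr by 1.50 ± 0.30 (adjusted p 0.00503). The call of Acot11 held in all 22 fits without 1 library, and that of Hr in 21, being lost without striatum PTU replicate 6 (1.19, adjusted p 0.115). The differences of the other 7 genes did not pass the test and were 0.22 ± 0.19 for Desi1, 0.14 ± 0.21 for Lynx1, 0.08 ± 0.21 for Trp53inp2, -0.06 ± 0.26 for Dmtn, -0.29 ± 0.13 for Parp6, -0.40 ± 0.22 for Spsb1 and -0.54 ± 0.34 for Angptl2 (adjusted p 0.211 to 0.928). Differences that missed the threshold are not shown to be absent, with 2 PTU libraries in striatum. All WAT libraries had Y-linked counts, the striatum libraries at 24 h had almost none, and 1 of the 2 PTU libraries of striatum had them. Tissue and library type therefore cannot be told apart in these differences. The same holds for any PTU pretreatment that the TH animals of the 2 tissues did not share.

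The relatives of the 9 genes by family were examined for the same changes. Of 62 relatives 44 were tested in striatum, and 0 were called at 12 h or at 24 h by edgeR's quasi-likelihood test, against 0.96% and 0.348% of all genes tested in either direction. At an unadjusted p under 0.05 there were 10 and 7 relatives, and DESeq2 called 3 and 2. Without 24 h replicate 2 (few projection neuron markers) 6 were called at 12 h, and without 24 h replicate 3 there were 2. In WAT 52 relatives were tested. At 6 h 3 of them were called higher and 1 lower, which is 7.69% where 7.23% of all genes tested were called. By 24 h 3 stood higher and 7 lower than PTU, which is 19.2% where 17.1% of all genes were called.

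In the acyl-CoA thioesterase family of Acot11, 12 relatives were tested in WAT and 4 were called at 24 h. Acot4 fell by 1.55 ± 0.25 (log2, SE) with an adjusted p of 0.00163, and Acot2 by 1.05 ± 0.17 with an adjusted p of 0.00165. Acot13 rose by 0.63 ± 0.13 (adjusted p 0.00527) and Them4 by 0.63 ± 0.14 (adjusted p 0.0113), and all 4 calls held in each of the 12 fits without 1 WAT library. Acot2 and Acot4 belong to a cluster of closely similar genes, and counts of such copies may be shared. Ly6h, a relative of Lynx1 that also binds nicotinic receptors, fell by 2.12 ± 0.26 in WAT at 24 h (adjusted p 0.000217), in the opposite direction to Lynx1. Its level in WAT was low, at 53.8 to 87.4 normalised counts in PTU and 9.55 to 18.4 at 24 h. Kdm3a, a histone demethylase related to HAIRLESS, fell by 0.37 ± 0.09 (adjusted p 0.0131), while Kdm3b and Jmjd1c were not called in any comparison with PTU. Trp53inp1 and Desi2, the only paralogs of Trp53inp2 and Desi1 listed, were not called in either tissue. In the PARP family Parp10 rose by 0.81 ± 0.16 in WAT at 6 h (adjusted p 0.00906) and Parp9 by 0.49 ± 0.12 (adjusted p 0.0258). Tnks fell by 0.76 ± 0.19 at 24 h (adjusted p 0.0159). The call of Parp9 was lost in 3 of 12 fits without 1 library and that of Tnks without PTU replicate 2 (adjusted p 0.0521). Further calls at 24 h were those of Ablim3 and Vill, relatives of Dmtn that were lower, and of Spsb3, which was higher, each lost in 3 to 8 of 12 such fits. None of the 6 angiopoietin-like genes tested in WAT was called at either time.

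Genes that work with the 9 were listed as well. Of 12 tested textbook targets of TH, 1 was called in striatum, Klf9, a transcription factor gene, which rose by 0.51 ± 0.10 at 12 h (adjusted p 0.0420). Its rise at 24 h was 0.88 ± 0.10 (adjusted p 0.00982). In WAT 5 of 12 were called at 6 h and 7 of 12 at 24 h, all higher, where 4.18% and 7.45% of all genes tested were called higher. Among them Ppargc1a, a coactivator of mitochondrial genes, rose by 3.10 ± 0.18 at 6 h (adjusted p 1.24e-06) and Stat5a, which encodes a signal transducer, by 1.53 ± 0.10 (adjusted p 5.22e-06). Gpd2, the mitochondrial glycerol phosphate dehydrogenase gene, rose by 2.28 ± 0.20 at 24 h (adjusted p 2.41e-05). Ppargc1a is also 1 of the brown adipocyte markers used above. Of the 7 calls at 24 h those of Thrsp (1.20 ± 0.35) and Hcn2 (1.02 ± 0.32) were lost in 6 and 9 of 12 fits without 1 library, and the other 5 held in all 12. Klf9 was called in 2 of 10 fits without 1 striatum library at 12 h (adjusted p up to 0.329, without PTU replicate 3) and in 8 of 10 at 24 h, being lost without either PTU library and, at 24 h, with a covariate for Y-linked counts (adjusted p 0.0521).

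Of the 7 corepressor and receptor partners of HAIRLESS, 7 were tested in WAT. The TH receptor gene Thra was lower than PTU at both times, having fallen by 0.52 ± 0.14 at first (adjusted p 0.0422) and by 0.73 ± 0.14 later (adjusted p 0.00436). Rora, another nuclear receptor gene, fell by 1.02 ± 0.19 (adjusted p 0.00324) and the histone deacetylase gene Hdac3 by 0.32 ± 0.08 at 24 h (adjusted p 0.0194). The calls of Thra and Rora at 24 h held in 12 of 12 fits without 1 library, that of Hdac3 in 10 and that of Thra at 6 h in 4. In striatum 6 were tested, and neither Thra nor Rora was called. Thra had 2550 to 2620 normalised counts there in PTU, 2690 to 3600 at 12 h and 2500 to 3520 at 24 h. The tissue difference at 24 h was called for these 2 of the 6, against 5.14% of all genes tested. Both were lower in WAT, in 20 of 22 fits each. Of 6 autophagy partners of TP53INP2, Vmp1 alone was called, in striatum at 24 h (0.90 ± 0.13, adjusted p 0.0250, in 4 of 10 fits). Among the partners of dematin Mpp1 rose in WAT by 0.80 ± 0.19 at 6 h (adjusted p 0.0236). At 24 h it stood 0.96 ± 0.19 above PTU (adjusted p 0.00444). Epb41 rose by 0.64 ± 0.15 at 6 h (adjusted p 0.0262). The calls of Mpp1 and Epb41 at 6 h held in 9 and 7 of 12 fits, and that of Mpp1 at 24 h in 12. None of the nicotinic receptor subunit genes was called against PTU, with 7 tested in striatum and 1 in WAT.

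The genes beside Hr and Dmtn were examined in both tissues. In order along chromosome 14, Reep4 (chr14:70545251-70548933) lies 3.28 kb before Hr, Nudt18 (chr14:70577637-70582688) lies 4.09 kb after it, and Fam160b2 (chr14:70583296-70599835) lies 1.43 kb before Dmtn. Nudt18, a hydrolase gene, had 359 to 501 normalised counts in PTU WAT, 989 to 1400 at 6 h and 959 to 1210 at 24 h. It rose by 1.52 and 1.36 at 6 and 24 h (adjusted p 4.3e-05 and 5.95e-05). Fam160b2 rose by 0.93 and 0.83 in WAT (adjusted p 0.00361 and 0.00356) and Reep4 by 0.59 and 0.69 (adjusted p 0.0124 and 0.00259). These 6 calls held in each of the 12 fits without 1 WAT library. Among all genes tested in WAT 4.18% and 7.45% were called higher at 6 and 24 h. Hr and Dmtn were called at both times too, but these values chose them, and the 24 h call of Dmtn held in 7 of 12 fits. Fgf17, 0.155 kb from Dmtn on its other side, did not pass the count filter in either tissue. In striatum Nudt18, Fam160b2 and Reep4 were not called. Their log2 changes at 12 and 24 h were 0.16 and 0.35 for Nudt18, 0.10 and -0.05 for Fam160b2, and 0.80 and 0.62 for Reep4.

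The response at 24 h differed between the tissues for Nudt18 (by 1.02 more in WAT on the log2 scale, adjusted p 0.0255) and for Fam160b2 (0.88, adjusted p 0.0393), and the difference for Reep4 did not pass the test (0.07, adjusted p 0.936). The call of Nudt18 was lost without either striatum PTU library (adjusted p 0.0765 without replicate 3 and 0.166 without replicate 6). That of Fam160b2 was lost in 6 of 22 fits without 1 library, among them those without either striatum PTU library. Here too tissue and library type (with or without Y-linked counts) cannot be told apart. Beside the other genes, the nearest coding gene called in both tissues was Slc25a33, a mitochondrial nucleotide carrier gene 122 kb from Spsb1. Slc25a33 had 88.0 and 88.0 normalised counts in PTU striatum and 133 to 196 in the 8 TH libraries, and in WAT 109 to 145 in PTU, 363 to 595 at 6 h and 238 to 333 at 24 h. It rose by 0.78 and 1.03 in striatum at 12 and 24 h (adjusted p 0.0418 and 0.0250) and by 2.05 and 1.24 in WAT at 6 and 24 h (adjusted p 3.42e-05 and 0.000657). Its WAT calls held in each of the 12 fits without 1 library, and its striatal calls in 1 of 10 fits at 12 h and 5 of 10 at 24 h. Of the remaining neighbours and overlapping genes that were tested, Ralgps1, which overlaps Angptl2 on the opposite strand, fell by 0.64 in WAT at 6 h (adjusted p 0.0334, in 6 of 12 fits), and no other was called against PTU.

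**Figure D5:**
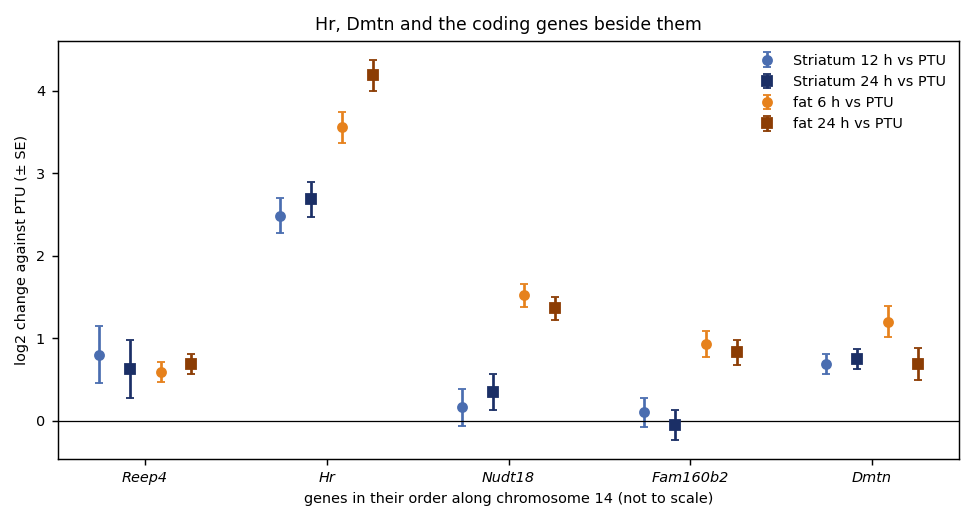
Log2 change against PTU (vertical axis, ± SE) of Reep4, Hr, Nudt18, Fam160b2 and Dmtn, in their order on chromosome 14 and not to scale, in striatum at 12 and 24 h and in WAT (fat) at 6 and 24 h. Nudt18 stands at 1.52 and 1.36 in WAT and at 0.16 and 0.35 in striatum.

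The genes whose levels ran most like Hr across libraries were sought on log2 CPM, as a description, since libraries within a tissue share the treatment groups. In the 10 striatum libraries they were Gls2 (Pearson r 0.975), Spsb1 (0.971), Hs6st1 (0.965), Baalc (0.963) and Col15a1 (0.962). In the 12 WAT libraries they included Syt12 (0.986), RP23-339B16.2 (0.977), Loxl1 (0.976) and Slc35g1 (0.974). The other 8 genes had r of 0.882 (Lynx1) to 0.971 (Spsb1) with Hr in striatum. In WAT they spread from 0.486 (Lynx1) and 0.657 (Parp6) to 0.943 (Trp53inp2) and 0.951 (Acot11), with Dmtn at 0.735 and Angptl2 at 0.736. The choice of genes that were higher after TH favours a high r with Hr, so nothing is read from these values.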

How the data were processed

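RNA was extracted with Trizol (WAT) or an RNeasy kit (striatum), and libraries were made with a Lexogen SENSE total RNA kit. The authors deposited 1 table of raw read counts per gene for each tissue, with totals of 8056443 to 10163849 in striatum and 17298747 to 26963433 in WAT, so that low genes such as Angptl2 in striatum are measured less precisely. The submitters' processing notes name Bowtie2 2.2.6.2, DESeq2 and the mm10 build, and the study's methods name htseq-count, after reads with an alignment quality under 10 were removed. The strand setting of the counting is not given in the sources used here. Gene symbols turned into dates by a spreadsheet (14 rows in striatum, 15 in WAT) held at most 0.201% and 0.0825% of counts and were left out. In WAT 86 rows with a mean above 100 differed from another row by under 2% in every library and held 6.09% of counts, and none of the 9 genes was among them. The 9 genes and all lists were chosen with earlier results of these data known.

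Counts were scaled by TMM factors, genes with a mean above 10 normalised counts were kept (15827 in striatum, 17928 in WAT), and the 3 groups of a tissue were fitted together with edgeR 4.0.16 (quasi-likelihood F test, two-sided, R 4.3.3), with Benjamini-Hochberg adjustment over all genes tested and calls at an adjusted p under 0.05. The tissue difference was an interaction over all 22 libraries and 6 groups, for genes found once in both tables. Scripts were tested on simulated counts. Alternatives were DESeq2 1.42.0, RLE size factors, no filter, only the groups compared, a replicate block, each library left out, a Y-linked covariate, WAT without copied rows and, added after the counts were seen, striatum libraries of 1 type. No replicate pair agreed within sampling noise (chi-square per degree of freedom 3.68 to 43.8 in striatum and 10.7 to 95.2 in WAT). Named genes were the 9, called genes of each list (up to 3 per list and comparison by smallest adjusted p, others named where a count needed it), the 5 genes closest to Hr per tissue, and overlapping or nearest genes. A few genes that this rule selects are not reported here.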

Additional observations from a re-analysis of the deposited data

Results flagged for a closer look

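Acot11 in PTU WAT had 71.3 normalised counts in replicate 3, far from the 39.4, 41.9 and 44.2 of the other 3 libraries. Lynx1 in WAT at 6 h had 213 normalised counts in replicate 2, apart from 199, 200 and 200, a small gap in a group with little spread. These were the 2 groups with 1 library far from the others (Dixon's test) among 45 examined, and chance flags about 1 in 20 groups. The responses at 24 h of Hr and Acot11 differed between the tissues in the test of the difference itself, by 1.50 (adjusted p 0.00503) and 3.88 (adjusted p 9.43e-05) on the log2 scale, both larger in WAT. That difference is built from changes that chose the genes, and tissue cannot be told apart from library type (with or without Y-linked counts).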

How the results depend on the processing

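No called result changed sign under the alternatives run. The 9 genes called higher in striatum ranged from 0 to 9 at 12 h (main value 7) and from 0 to 8 at 24 h (main value 8) when 1 library was left out. With a replicate block they were 0 at both times, although the numbers only name samples (residuals of same-numbered libraries correlated at -0.41 to 0.28 in striatum and -0.483 to 0.428 in WAT). At 24 h they were 0 when only PTU and 24 h libraries were fitted, 1 with the Y-linked covariate and, in an alternative chosen after seeing the data, 0 in the libraries without Y-linked counts alone, which hold 1 PTU library. The genes called for the tissue difference were 1 with a replicate block, where Hr was lost (1.32, adjusted p 0.179), and 1 to 2 with 1 library left out. With the block Hr between 6 and 24 h in WAT had an adjusted p of 0.0586. Relatives called in striatum at 12 h were 3 with DESeq2, 2 without the filter, 7 when only PTU and 12 h libraries were fitted, 2 in the libraries with Y-linked counts alone and 0 to 6 with 1 library left out, and at 24 h they were 2 with DESeq2. The mean level of Spsb1 in PTU striatum was 9.12 to 9.19 CPM with either PTU library left out. In WAT the counts of the 9 genes called were 7 at 6 h in every alternative and 7 to 9 at 24 h. The cause of the changes was not tested. Striatal calls rest on 2 PTU libraries, and Angptl2 there on about 15 counts per PTU library.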
